A study of Mus musculus with 2 samples.

Results

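The circadian clock core genes were followed through the cell types of the mouse fetal ovary. The 10 members, Clock, Npas2, Arntl, Per2, Per3, Cry1, Cry2, Nr1d1, Nr1d2 and Dbp, were taken by gene symbol from the 27998 genes of both count tables, and each symbol was found in both. The question was which clock components were high in the same cells as Clock, across germ cell stages and somatic cell types, with and without the glucocorticoid receptor (GR, encoded by Nr3c1).

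Transcripts were counted in single cells of ovaries dissected at E15.5 (embryonic day), in 1 wild-type (WT) library and 1 GR deletion (KO) library. Both carried the strain label Tg(Pou5f1-EGFP)2Mnn Nr3c1tm1.1Jda, in which a Pou5f1 promoter drives a green fluorescent protein that marks germ cells. The WT library pooled 4 embryos and the KO library 2, all from crosses of heterozygous parents, and in the KO embryos an exon of Nr3c1 was deleted in every cell by an earlier ubiquitous ACTB-cre. Sorted fluorescent germ cells were mixed at 60 to 40 with somatic cells of the ovary before capture. With 1 library per genotype there was no replicate, no test was possible and no p-value is given. Intervals are exact, at 95%, and cover counting error only. A difference between KO and WT cannot be told apart from the embryo pool, the sort, the capture or the hour at which each ovary was collected.

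The mammalian clock is a feedback loop of transcription. CLOCK, or its relative NPAS2, pairs with ARNTL (also called BMAL1), and the pair activates genes through E-box sequences. Among its targets are the Per and Cry genes, whose proteins return to inhibit the pair, and Nr1d1 and Nr1d2, which encode the REV-ERB receptors that repress Arntl through RORE sequences. Dbp, an output gene, encodes an activator of the PAR bZIP family that binds D-box sequences. The loop runs with the time of day in most adult tissues, whereas embryonic cells and germ cells are known for weak or absent rhythms. Each library is a single time of collection, so no rhythm can be read from these data.

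The sequences upstream of the 3 members that were at least 2-fold higher in germ-like cells are shown first, because these genes shared a cell distribution. They are the 250 bases before the annotated start, from RefSeq on GRCm38.p6, printed 5′ to 3′ with D-box matches in capitals.
Clock, chr5:76304793-76305042, minus strand: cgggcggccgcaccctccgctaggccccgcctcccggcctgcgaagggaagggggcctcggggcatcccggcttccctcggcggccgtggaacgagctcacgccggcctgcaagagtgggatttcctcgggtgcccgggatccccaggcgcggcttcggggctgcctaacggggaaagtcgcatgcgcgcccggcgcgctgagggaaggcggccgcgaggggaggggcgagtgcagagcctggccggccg
Per3, chr4:151044666-151044915, minus strand: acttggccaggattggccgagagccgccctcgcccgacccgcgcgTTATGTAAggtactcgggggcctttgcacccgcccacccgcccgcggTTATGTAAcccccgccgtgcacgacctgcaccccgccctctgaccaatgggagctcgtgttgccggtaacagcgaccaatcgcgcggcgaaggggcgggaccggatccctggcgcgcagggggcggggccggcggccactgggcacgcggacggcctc
Nr1d2, chr14:18239107-18239356, minus strand: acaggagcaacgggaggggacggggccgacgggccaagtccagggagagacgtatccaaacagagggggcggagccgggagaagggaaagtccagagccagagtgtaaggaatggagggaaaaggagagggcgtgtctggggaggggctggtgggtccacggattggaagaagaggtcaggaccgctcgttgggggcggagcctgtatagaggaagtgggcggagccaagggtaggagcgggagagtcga
Of 3 annotated starts of Clock, the one farthest upstream is printed. Both strands were searched for the E-box CACGTG, the related E'-box CACGTT, the D-box TTATGTAA or TTACGTAA, and the RORE, which is GGTCA preceded by AANTN. No searched letters were found in the window of any of the 3 Clock starts or of Nr1d2, whereas Per3 held 2 D-boxes, 205 and 158 bases before its start. Among 32851 promoter windows of the same length, 6.02% held an E-box, 3.85% an E'-box, 0.931% a D-box and 0.493% a RORE. The GC content was 76.4% in the printed Clock window, 72.4% in that of Per3 and 63.6% in that of Nr1d2. The other starts of Clock gave 77.6% and 49.2%, and the median over all windows was 52.4%.

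Entries were found for 9 of the 10 members. E-boxes or E'-boxes stood before 3 members whose germ and somatic levels differed by under 2-fold, and their surroundings are shown for comparison, with the matches in capitals. An E'-box reads AACGTG on the opposite strand. The Cry1 stretch holds an E'-box and, 60 bases before the start, an E-box.
Cry1, chr10:85185089-85185134, minus strand: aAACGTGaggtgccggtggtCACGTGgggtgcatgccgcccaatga
Cry2, chr2:92434210-92434255, minus strand: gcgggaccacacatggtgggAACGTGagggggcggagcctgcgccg
Nr1d1, chr11:98775380-98775425, minus strand: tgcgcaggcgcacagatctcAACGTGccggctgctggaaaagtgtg
No match was found in the windows of Npas2, Arntl or Dbp. A match is a description of letters only, and no binding was measured here.

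The WT library held 11430 cell barcodes and 168483330 unique molecular identifiers (UMIs, counted transcripts), and the KO library 17829 barcodes and 186117981 UMIs. After the filters of the study 9045 WT and 15502 KO cells remained, with medians of 15685 and 10194.5 UMIs, and 27 kept barcodes occurred in both libraries. Clusters were made without the clock genes and Nr3c1 and were named from markers. Germ-like cells numbered 6792 in WT and 10202 in KO, granulosa-like cells 933 and 2041, theca-like cells 840 and 1932, and epithelia-like cells 405 and 1087. All 8 germ, 8 granulosa and 8 theca markers, and 7 of 8 epithelial markers (not Lhx2), were at least 2-fold higher in their own class in both libraries. Nr3c1 checked the labels: in germ-like cells it stood at 71.9 counts per 1000000 UMIs (CPM) in WT and was lower in KO by a log2 ratio of -2.63 (-2.71 to -2.55), although counts name genes and not exons. Germ RNA was present in somatic-like cells: the 8 germ markers stood there at a median of 12.5% of their germ-like level in WT (range 12.2 to 14.1%) and 18.1% in KO (17.4 to 23.4%), none of the 8 at 0. Perivascular cells were not separated from theca-like cells.

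Clock was higher in germ-like cells than in every main somatic class of both libraries. Its level was 77.8 CPM (76.3 to 79.4, 9381 UMIs) in WT germ-like cells and 78.0 CPM (76.5 to 79.6, 9494 UMIs) in KO germ-like cells. Over all somatic-like cells it was 26.5 CPM (24.8 to 28.4) in WT and 31.5 CPM (30.0 to 33.1) in KO. The germ and somatic intervals did not overlap in either library. The log2 ratio of germ-like over somatic-like was 1.55 (1.45 to 1.66) in WT and 1.31 (1.23 to 1.38) in KO, a fold of 2.93 and 2.47. The somatic level of Clock was 34.1% of its germ level in WT and 40.4% in KO, above the percentages of the 8 germ markers. The part of germ RNA in the somatic level was not tested. With cells carrying markers of another class removed, the ratio was 1.83 in WT and 1.77 in KO.

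Within the soma the classes lay close together for Clock. In WT it stood at 29.9 CPM in theca-like, 26.6 in granulosa-like and 22.0 in epithelia-like cells, and in KO at 32.4, 30.6 and 31.5 CPM. The order was not separable beyond counting error except that theca-like exceeded epithelia-like cells in WT, by a log2 ratio of 0.44 (0.16 to 0.72). The small classes were counted from few UMIs: Clock had 6 UMIs in 30 WT endothelia-like cells and 7 in 31 WT immune-like cells, and 42 and 15 UMIs in the 136 and 50 such KO cells. Erythroid-like cells read 50.6 CPM from 17 UMIs in WT and 40.6 CPM from 36 UMIs in KO. The erythroid-like cells also held the germ markers at medians of 37.8% and 53.3% of their germ level, and the part of that RNA in the Clock value was not tested.

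After each cell was thinned to 3000 UMIs, Clock was detected in 19.7% (18.8 to 20.7%) of WT germ-like cells and 19.9% of KO germ-like cells. Granulosa-like cells gave 7.29% and 7.79%, theca-like cells 7.50% and 7.97%, and epithelia-like cells 8.15% and 8.10%. Before thinning, 66.1% of WT and 53.2% of KO germ-like cells had a Clock UMI, and 25.7% and 22.6% of granulosa-like cells. For the background of free RNA, the germ helicase gene Ddx4 was detected after thinning in 47.6% of WT germ-like and 3.54% of WT granulosa-like cells, and in 49.9% and 6.61% in KO. Read as a percentage of the germ-like share of the same gene, the granulosa-like share was 36.9% for Clock and 7.44% for Ddx4 in WT, and 39.1% and 13.3% in KO.

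The partners of CLOCK were counted at far lower levels. Arntl, which encodes the partner ARNTL, was counted at 3.41 CPM (411 UMIs) in WT and 2.96 CPM (360 UMIs) in KO germ-like cells, and at 3.32 and 3.09 CPM in somatic-like cells. The germ-over-somatic log2 ratios were 0.04 (-0.28 to 0.36) in WT and -0.07 (-0.34 to 0.21) in KO over all cells. Within groups of cells by Malat1, a split explained with the germ clusters, Arntl read higher in germ-like cells. In the middle group the ratio was 0.57 (-0.38 to 1.72) in WT and 1.14 (0.06 to 2.47) in KO, from 9 and 7 somatic UMIs. In the high group, which had no upper bound, it was 0.87 (0.36 to 1.36) and 0.76 (0.17 to 1.31), from 57 and 33 germ-like UMIs. The somatic mix also differed between groups. Against granulosa-like cells alone, the middle-group germ level was 4.05 against 3.99 CPM (3 UMIs) in WT and 2.81 against 0.88 CPM (1 UMI) in KO. The part of the 14 Arntl UMIs of WT advanced prophase-like cells was not tested. The equality of Arntl over all cells therefore depended on which cells were set side by side. Among somatic classes the granulosa-like level was 4.11 CPM in WT and 4.40 in KO, and the epithelia-like level 3.49 CPM (26 UMIs) and 1.27 CPM (17 UMIs). Npas2, which can stand in for Clock, was nearly undetected: 10 UMIs in 6792 WT germ-like cells and 7 in 10202 KO germ-like cells. Its somatic UMIs lay mostly in theca-like cells, 13 of 15 in WT and 15 of 23 in KO. With under 100 UMIs in all, Npas2 was not counted in the comparisons.

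The period genes split. Per3 was high where Clock was, at 42.2 CPM (41.0 to 43.3) in WT and 36.6 CPM (35.6 to 37.7) in KO germ-like cells. Granulosa-like cells held 8.78 CPM in WT and 10.3 in KO, theca-like cells 9.29 and 11.3, and epithelia-like cells 5.38 and 6.56. The germ interval lay above all 3 somatic intervals in each library. The germ-over-somatic log2 ratio was 2.39 (2.20 to 2.58) in WT and 1.92 (1.78 to 2.06) in KO, and the somatic level was 19.1% and 26.4% of the germ level. These percentages are nearer than those of Clock to the germ marker medians of 12.5% and 18.1%, and the part of germ RNA was not tested. Per2, the period gene with the main clock role in adult tissues, was sparse, with 135 UMIs (1.12 CPM) in WT and 94 (0.77 CPM) in KO germ-like cells. Its germ and somatic intervals overlapped, with log2 ratios of 0.42 (-0.20 to 1.08) and 0.14 (-0.43 to 0.74).

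Cry1 and Cry2, which encode the cryptochrome inhibitors, were present in all 4 main classes. Cry1 was at 31.0 CPM in WT and 31.3 CPM in KO germ-like cells, with log2 ratios over somatic-like cells of 0.07 (-0.04 to 0.17) and -0.06 (-0.15 to 0.02). That near equality held 2 opposite differences. Germ-like cells exceeded granulosa-like cells, at 18.9 and 23.0 CPM, by 0.71 (0.52 to 0.91) in WT and 0.44 (0.30 to 0.59) in KO. They lay below theca-like cells, at 37.9 and 39.0 CPM, by a log2 ratio of -0.29 in WT and -0.32 in KO, and below epithelia-like cells, at 40.0 and 42.9 CPM, by -0.37 and -0.46. Theca-like and epithelia-like levels of Cry1 did not differ beyond counting error. Cry2 had another order: 10.5 and 10.6 CPM in germ-like, 9.65 and 10.7 in granulosa-like, 5.71 and 7.82 in theca-like and 4.70 and 4.10 in epithelia-like cells. Its germ-like and granulosa-like levels did not differ beyond counting error, with log2 ratios of 0.12 (-0.15 to 0.40) and -0.01 (-0.22 to 0.20), and over all somatic-like cells the ratio was 0.55 (0.34 to 0.76) and 0.46 (0.29 to 0.62).

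The REV-ERB genes split as the period genes did. Nr1d2, encoding REV-ERB beta, stood at 34.4 CPM (33.3 to 35.4) in WT and 28.8 CPM (27.9 to 29.8) in KO germ-like cells. Granulosa-like cells were at 8.22 CPM in WT and 7.32 in KO, theca-like cells at 7.96 and 9.74, and epithelia-like cells at 4.97 and 5.36. Germ-like cells were higher in each, with log2 ratios over all somatic-like cells of 2.26 (2.06 to 2.46) and 1.87 (1.72 to 2.02), and the somatic level was 20.9% and 27.4% of the germ level. Nr1d1, encoding REV-ERB alpha, had 226 UMIs (1.88 CPM) in WT and 157 (1.29 CPM) in KO germ-like cells. Its ratios were -0.12 (-0.52 to 0.31) and -0.27 (-0.67 to 0.14), so it was not separable between germ and soma.

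Over all cells Dbp had the reverse distribution of Clock. It stood at 4.61 CPM (4.24 to 5.01, 556 UMIs) in WT and 3.63 CPM (3.30 to 3.99, 442 UMIs) in KO germ-like cells, against 19.1 and 16.8 CPM in somatic-like cells. The somatic excess was mainly granulosa-like, at 33.0 CPM (30.0 to 36.4) in WT and 31.1 CPM (28.6 to 33.6) in KO. Theca-like cells were at 11.0 and 10.0 CPM and epithelia-like cells at 7.79 and 6.63 CPM. The order granulosa-like, theca-like, epithelia-like, germ-like held in both libraries, with each neighbouring ratio's interval excluding 0. The germ-over-somatic log2 ratio was -2.05 (-2.22 to -1.88) in WT and -2.21 (-2.38 to -2.04) in KO, and the germ-over-granulosa ratio -2.84 and -3.10. Among cells of middle Malat1 content, with all somatic-like cells joined, the difference was under 2-fold. It was -0.77 (-1.33 to -0.16) in WT and -0.30 (-0.85 to 0.29) in KO, where the interval included 0. Of those somatic-like cells, 30 of 169 in WT and 62 of 368 in KO were granulosa-like. Their Dbp level was 19.96 CPM (15 UMIs) and 16.6 CPM (19 UMIs), against 4.97 and 4.45 CPM in germ-like cells. Theca-like cells stood at 1.19 CPM (1 UMI) and 5.05 CPM (8 UMIs), and epithelia-like cells at 6.66 CPM (10 UMIs) and 0.96 CPM (2 UMIs). The part of the class mix in the ratio was not tested. The granulosa markers summed to 30.6 CPM in WT germ-like cells against 3242 CPM in granulosa-like cells.

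**Figure D1:**
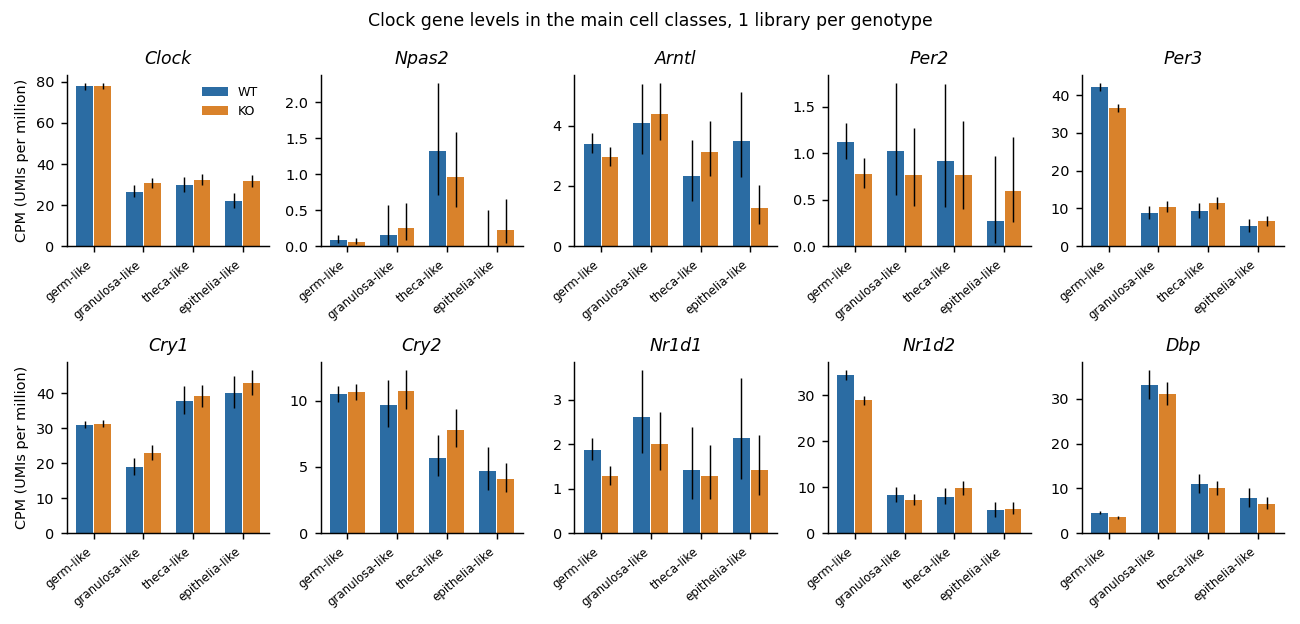
Level of each of the 10 clock genes in the 4 main cell classes, in CPM on linear axes that start at 0, with WT in blue and KO in orange. Bars are the summed level of 1 library each and lines are exact 95% Poisson intervals. Clock, Per3 and Nr1d2 are tallest in germ-like cells and Dbp in granulosa-like cells, and the axes differ between genes.

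Counted at 2-fold among genes whose germ-like and somatic-like UMIs summed to 100 or more, 3 of 9 members (Clock, Per3 and Nr1d2) were higher in germ-like than in somatic-like cells in WT, where 25.9% of all tested genes were higher. The same 3 of 9 were higher in KO, where 22.1% of genes were. Dbp was the 1 member of 9 that was lower, against 31.8% of genes in WT and 33.4% in KO. Under the size limit of the study, a difference of 0.25 in ln(CP10k + 1), where CP10k is the level per 10000 UMIs and ln the natural logarithm, Clock and Per3 passed in WT (20.3% of genes in either direction) and Clock alone in KO (18.3%). This measure understates differences at low levels. The median log2 ratio of the 9 members was 0.42 in WT and 0.14 in KO, beside 0.00 and -0.09 over all genes tested. The members as a set were therefore mixed, and their share above 2-fold was close to that of all genes.

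Some members share genomic ground with neighbours. On GRCm38 with GENCODE M21, Clock lies at chr5:76209868-76304792 on the minus strand and Nr1d2 at chr14:18204054-18239127, also minus. Per3 (chr4:151003652-151044665, minus) lies within the span of Camta1 on the same strand, with 0 shared exon bases, and Camta1 was higher in germ-like cells too, with log2 ratios of 1.62 in WT and 1.44 in KO. Nr1d1 (chr11:98767932-98775333, minus) shares 263 exon bases with Thra on the opposite strand, which was lower in germ-like cells by -3.98 and -4.08. Dbp (chr7:45705088-45710203, plus) shares 539 exon bases with Sphk2 on the opposite strand, with ratios of -0.81 and -0.65. Whether counting used the strand is not given in the sources used here, so the values of Nr1d1 and Dbp may include reads of those neighbours. The remaining members lie at chr1:39193731-39363236 (Npas2, plus), chr7:113207465-113314126 (Arntl, plus), chr1:91415982-91459324 (Per2, minus), chr10:85131700-85185064 (Cry1, minus) and chr2:92403646-92434043 (Cry2, minus). No member had a near-identical transcript of another gene.

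The wider clock list, 25 further genes, was also divided. In both libraries 5 of the 25 were at least 2-fold higher in germ-like cells, where 25.9% of all tested genes were in WT and 22.1% in KO, and 10 of the 25 were lower, where 31.8% and 33.4% were. Both counts lie near the share of all genes and are no result about the list. The higher ones were Tef, a PAR bZIP activator like Dbp, the CLOCK inhibitors Cipc and Ciart, the Arntl paralog Arntl2, and the deacetylase gene Sirt1. Tef stood at 55.2 CPM in WT and 47.7 CPM in KO germ-like cells against 18.5 and 18.4 CPM in somatic-like cells, with log2 ratios of 1.58 and 1.37. For Arntl2 the ratios were 1.63 and 1.73 at low levels, 2.69 and 2.26 CPM in germ-like cells, so Arntl2 was higher where Arntl was not. Ratios were 1.42 and 1.16 for Cipc, 1.21 and 1.02 for Ciart, and 1.36 and 1.22 for Sirt1.

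The lower genes included the remaining period gene, Per1, at -1.70 in WT and -1.59 in KO. The DEC repressor genes Bhlhe40 and Bhlhe41 were lower by -1.66 and -3.45 in WT and by -2.00 and -3.87 in KO, and Bhlhe41 reached 48.2 CPM in WT granulosa-like cells. Nfil3, which encodes a D-box repressor, was lower by -3.72 and -3.50. Rora and Rorb, which encode nuclear receptors that oppose the REV-ERBs, were lower too, Rora by -1.44 and -1.73 and Rorb by -1.27 and -1.23. The cofactor genes Nono (-1.37 and -1.40), Hdac3 (-1.24 and -1.28) and Ncor1 (-1.22 and -1.27) and the kinase gene Prkaa1 (-1.12 and -1.48) completed the group. The median of the 25 was -0.46 in WT and -0.61 in KO.

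**Figure D2:**
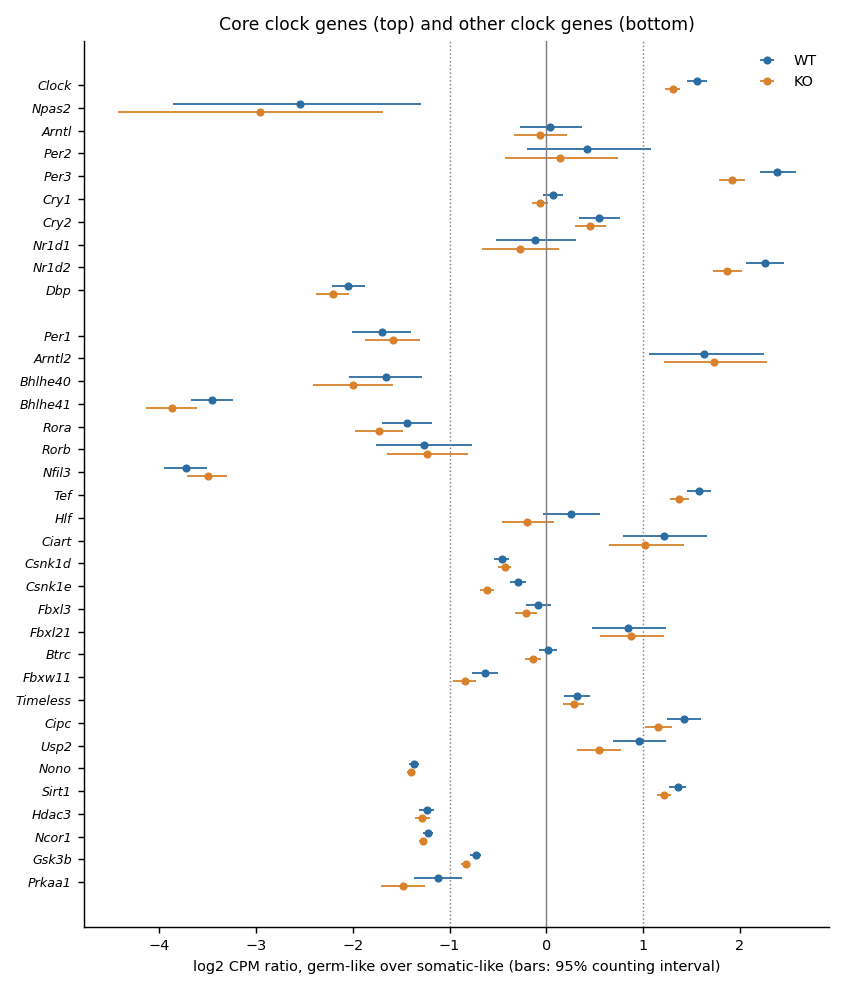
Log2 CPM ratio of germ-like over somatic-like cells for the 10 core clock genes (top) and 25 other clock genes (bottom), WT in blue and KO in orange, 1 library each. Lines are 95% counting intervals, the solid grey line is no difference and dotted lines mark 2-fold. Per3 (2.39 in WT) and Nr1d2 (2.26) lie farthest right and Nfil3 (-3.72) and Bhlhe41 (-3.45) farthest left in WT.

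Germ-like cells were divided into 10 clusters, of which 7 fell into 4 named stages and 3 stayed unnamed. The unnamed clusters were 0 (1735 WT and 2056 KO cells), 1 (998 and 1727) and 8 (73 and 123). They are a large part of the germ-like cells and enter no stage value. The stages are named from marker lists, as premeiotic-like (468 WT and 899 KO cells), meiotic entry-like (382 and 925), recombination-like (3073 and 4462) and advanced prophase-like (63 and 10). Levels by stage describe clusters and carry no test. The assignment of cluster 7 (480 WT and 555 KO cells) was close: 3 recombination markers (Dmc1, Prdm9 and Meiob) and 3 of the longer advanced prophase list were high in it, and it was counted as recombination-like. The 10 KO cells of the last stage held 11 Clock UMIs, so statements on it rest on WT.

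With these stages, Clock stood above all main somatic classes at each of them. In WT it stood at 76.4 CPM in premeiotic-like, 89.3 in meiotic entry-like, 85.8 in recombination-like and 85.6 (123 UMIs) in advanced prophase-like cells. In KO the values were 71.5, 93.6, 88.8 and 82.8 CPM. Against premeiotic-like cells, Clock was slightly higher at meiotic entry, with log2 ratios of 0.22 (0.08 to 0.37) in WT and 0.39 (0.27 to 0.51) in KO, and in recombination-like cells, with 0.17 (0.06 to 0.28) and 0.31 (0.21 to 0.41). The recombination-like level joins clusters 2, 3, 4 and 7, at 86.7, 77.1, 137 and 32.5 CPM in WT. In KO they stood at 92.5, 75.9, 139 and 31.6 CPM. The interval of the joined level does not cover that spread. The advanced prophase-like ratio was 0.16 (-0.12 to 0.44) in WT. With these stages none differed from another by 2-fold. The result turned on cluster 7. Counted as advanced prophase-like, a choice made after the data were seen, it brought that stage to 41.9 CPM in WT and 33.0 CPM in KO, with log2 ratios to premeiotic-like cells of -0.87 and -1.11, and the recombination-like level without it was 93.4 and 94.5 CPM. In that division the KO advanced prophase-like level was close to the 32.4 CPM of KO theca-like cells. When germ-like cells were instead split into 4 equal-sized groups by their stage markers, Clock was nearly level, at 80.3, 79.4, 74.7 and 76.8 CPM from least to most advanced in WT and at 78.5, 81.3, 77.3 and 74.8 CPM in KO.

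Per3 and Nr1d2 followed Clock in being present at every stage. Per3 in WT was at 37.9, 40.8, 51.6 and 37.6 CPM from premeiotic-like to advanced prophase-like cells, and in the first 3 stages of KO at 36.7, 32.9 and 44.3 CPM. Its recombination-like level exceeded the premeiotic-like level by 0.44 (0.29 to 0.60) in WT and 0.27 (0.13 to 0.41) in KO. Nr1d2 in WT was at 29.3, 29.8, 34.7 and 43.8 CPM, and in KO at 28.9, 30.5 and 30.6 CPM in the first 3. The last value of both genes turned on cluster 7. With that cluster counted as advanced prophase-like, the stage held Per3 at 24.5 CPM in WT and 16.2 CPM in KO. Nr1d2 was then at 23.4 and 18.7 CPM, below its premeiotic-like levels. Cry1 was highest at meiotic entry in both libraries, at 42.8 and 41.4 CPM. Cry2 stood at 9.87, 13.2 and 14.2 CPM in the first 3 WT stages and at 4.87 CPM (7 UMIs) in advanced prophase-like cells, a log2 ratio to premeiotic-like of -1.02 (-2.37 to 0.08).

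Dbp fell into a different pattern within the germ line. It stood at 8.81 CPM (92 UMIs) in WT premeiotic-like cells, 2.96 (27 UMIs) at meiotic entry, 1.88 (100 UMIs) in recombination-like cells and 47.3 CPM (36.8 to 60.0, 68 UMIs) in advanced prophase-like cells. In KO the levels were 8.59, 3.16, 1.98 and 67.8 CPM, the last from 9 UMIs in 10 cells. The recombination-like level was below the premeiotic-like level by -2.23 (-2.65 to -1.81) in WT and -2.12 (-2.51 to -1.73) in KO. The advanced prophase-like level was above the premeiotic-like level by 2.43 (1.95 to 2.89) and above the recombination-like level by 4.65 (4.19 to 5.11) in WT. Its 63 cells gave 12.2% of the Dbp UMIs of WT germ-like cells and 1.19% of all their UMIs. The Dbp level there also exceeded that of WT somatic-like cells, by 1.31 (0.93 to 1.68). The granulosa markers summed to 19.5 CPM in these cells, with 2 of 8 at 0, against 3242 CPM in granulosa-like cells. The theca markers summed to 32.7 CPM, against 19.7 CPM in all WT germ-like and 4119 CPM in theca-like cells. Of them 2 of 8 were at 0, and the largest stood at 9.82% of its theca-like level. The epithelial markers summed to 23.7 CPM, against 2095 CPM in epithelia-like cells. The part of somatic RNA in this Dbp level was not tested. With cluster 7 added to the advanced prophase-like stage, its Dbp level was 10.7 CPM in WT and 2.87 CPM in KO, so the high level belonged to the 63 cells of cluster 9.

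Other members and list genes were also higher in the WT advanced prophase-like cells than in premeiotic-like cells. Nr1d1 had 13 UMIs there (9.05 CPM) against 1.72 CPM, a log2 ratio of 2.39 (1.24 to 3.5), and Arntl 14 UMIs (9.74 CPM) against 2.68 CPM, a ratio of 1.86 (0.82 to 2.84). Both fell short of 100 UMIs over the 2 stages. With cluster 7 added to the advanced prophase-like stage, Nr1d1 was at 2.71 CPM and Arntl at 3.20 CPM in WT. Bhlhe41, at 39.7 CPM (57 UMIs) against 1.15 CPM, had a ratio of 5.11 (4.19 to 6.14). Hlf, a PAR bZIP gene, was at 22.3 CPM (32 UMIs) and Ciart at 12.5 CPM (18 UMIs), with ratios of 3.47 and 2.03. These 3 list genes also fell short of 100 UMIs, and they were picked out with their values known. Timeless was lower, at 9.05 against 28.5 CPM (-1.66).

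With a sum of 100 or more UMIs, 8 members could be compared between recombination-like and premeiotic-like cells in WT. None was 2-fold higher, where 6.39% of genes were, and Dbp was lower, where 14.4% were. Of the list genes Usp2, which encodes a deubiquitinase, was lower, at 5.69 against 11.4 CPM. Between advanced prophase-like and premeiotic-like cells 6 members could be compared: Dbp was higher, where 15% of genes were, and Cry2 was lower, where 12.7% were, though the Cry2 interval included 0.

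**Figure D3:**
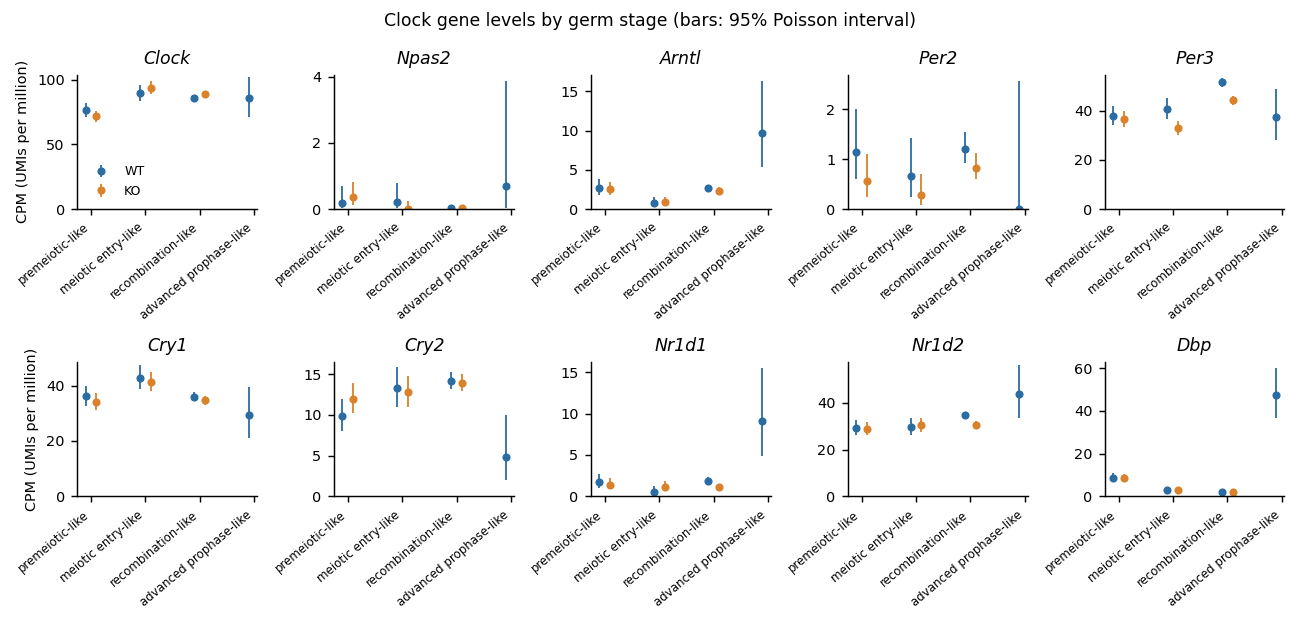
Level of each clock gene in the 4 named germ stages, in CPM on linear axes that start at 0, WT in blue and KO in orange, 1 library each, with exact 95% Poisson intervals as lines. The 10 KO advanced prophase-like cells are left out of the plot. Clock stays between 71.5 and 93.6 CPM, while Dbp rises to 47.3 CPM in the WT advanced prophase-like cells.

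The unnamed germ-like clusters widened the range of Clock. Over the 10 clusters it ran from 30.6 to 137 CPM in WT and from 27.8 to 139 CPM in KO. Clusters 1 (unnamed) and 7 (recombination-like) were low, at 30.6 and 32.5 CPM in WT and 27.8 and 31.6 CPM in KO, which is near the somatic level. Cluster 4 (recombination-like) held the highest value of each library. Its 2 leading genes by fold were the embryonic haemoglobin genes Hba-x and Hbb-y, ahead of its 5 recombination markers. Cluster 8 (unnamed, 73 WT and 123 KO cells), whose leading genes included the granulosa markers Fst, Kitl and Wnt6, stood at 68.8 and 76.9 CPM. Per3 and Nr1d2 had their 2 lowest and their highest WT values in the same clusters, Per3 at 17.2 and 21.7 CPM against 70.9 CPM, and Nr1d2 at 22.6 and 19.0 CPM against 49.3 CPM. Cry1 varied less between them, at 20.6, 27.4 and 38.0 CPM.

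Other properties set the lowest clusters apart. Malat1, a transcript retained in the nucleus, was at 360 CPM in cluster 1 and 121 CPM in cluster 7 in WT, against 3698 CPM in cluster 4. The median share of mitochondrial UMIs was 6.11%, 6.14% and 1.5% in WT clusters 1, 7 and 4, and the median UMIs 11796.5, 13530 and 11133. The median share of ribosomal protein UMIs was 36.4%, 34.1% and 23.7% in WT clusters 1, 7 and 4, and 24.6 to 30.2% in the others. In KO it was 35.8%, 32.9% and 23.5%, and 26.4 to 30.1% in the others. By Malat1 and mitochondrial share the remaining clusters did not follow one order. Clusters 0, 8 and 9 had more Malat1 than cluster 4, at 4179, 8251 and 8153 CPM in WT, but less Clock, at 80.4, 68.8 and 85.6 CPM. Cluster 8 had the highest median mitochondrial share of WT, 7.2%, without a low Clock level. Between germ and soma Malat1 went the other way, at 2322 CPM in WT germ-like and 16469 CPM in WT somatic-like cells. Depth and the mitochondrial and ribosomal protein shares were not regressed out when the germ-like clusters were made. The part of Malat1, mitochondrial share, ribosomal protein share or cell state in the Clock level was not tested.

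Cells were therefore also compared within 3 equal-sized Malat1 groups of all kept cells, a choice made after the data were seen, with bounds at 1203 and 6408 CPM. Within a group Malat1 was not matched further, and the high group had no upper bound. The high group held 2077 of 2253 WT somatic-like cells and 583 of 6792 WT germ-like cells. In germ-like cells Clock was at 61.3, 86.8 and 115 CPM from the low to the high group in WT and at 61.8, 89.9 and 118 CPM in KO. In the middle group, with 169 WT and 368 KO somatic-like cells, the germ-over-somatic log2 ratio of Clock was 1.23 (0.97 to 1.5) in WT and 1.03 (0.84 to 1.22) in KO, and in the high group 2.20 and 1.98. For Per3 the middle-group ratio was 1.5 in WT and 0.96 in KO, the KO value being under 2-fold, and the high-group ratio 2.77 and 2.24. For Nr1d2 it was 1.38 and 1.55 in the middle and 3.13 and 2.46 in the high group. For Dbp it was -0.77 and -0.30 in the middle group and -0.84 and -1.25 in the high group, of which only the KO high group passed 2-fold. These ratios join all somatic-like cells. Set beside granulosa-like cells alone, germ-like Dbp was lower in both groups. In the high group it was 11.5 against 33.9 CPM in WT and 7.71 against 31.95 CPM in KO. The germ-like cells of the high group held 105 Dbp UMIs in WT and 45 in KO. The advanced prophase-like cells, with Malat1 at 8153 CPM in WT and 9982 CPM in KO, held 68 and 9 Dbp UMIs. Their part in the high-group ratio was not tested. The low group held only 7 WT and 28 KO somatic-like cells. There the ratio of Clock was 0.42 (-0.50 to 1.55, 9 somatic UMIs) in WT and 0.54 (-0.08 to 1.26, 20 somatic UMIs) in KO, under 2-fold with intervals that include both 0 and 2-fold. In that group Per3 read 1.29 (-0.26 to 3.57) and 1.33 (0.21 to 2.78), and Nr1d2 2.40 (-0.08 to 7.70, 1 somatic UMI) and 0.38 (-0.55 to 1.51). The germ excess of Clock, Per3 and Nr1d2 was therefore seen in the middle and high groups and was not resolved in the low group, apart from Per3 in KO.

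**Figure D4:**
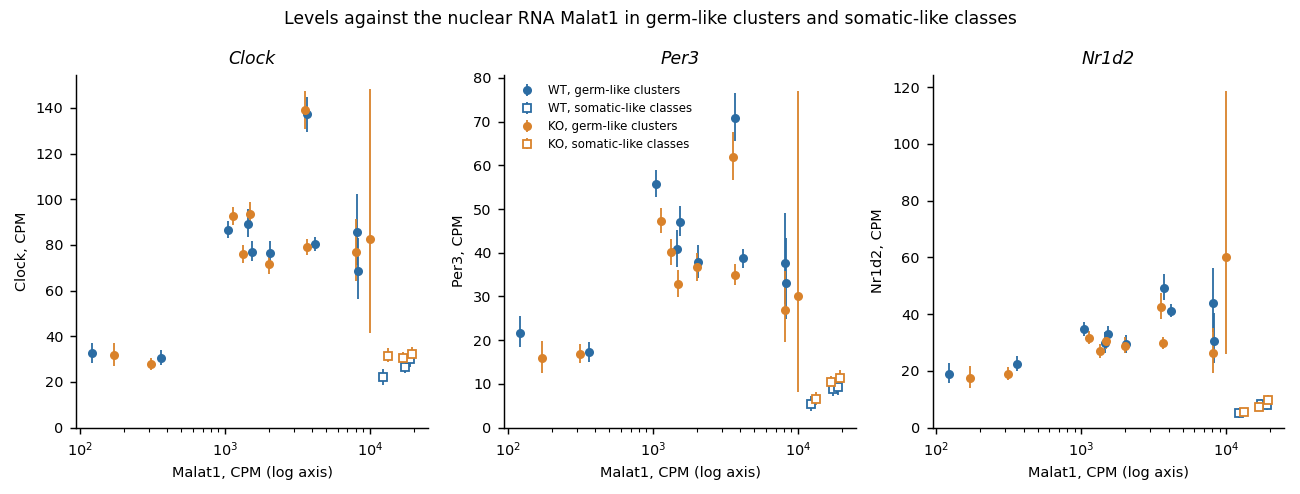
Clock, Per3 and Nr1d2 levels (CPM, linear axis from 0) against Malat1 (CPM, log axis) in the 10 germ-like clusters (filled circles) and 3 somatic-like classes (open squares), WT in blue and KO in orange, with 95% Poisson intervals as lines. The 2 clusters with the least Malat1 are the lowest germ-like points for Clock, near 30 CPM, and the somatic-like classes lie at low levels with the most Malat1.

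Between the genotypes no member differed by 2-fold in any main class. In germ-like cells 0 of 9 members passed, against 1.15% of 13795 genes. The counts were 0 of 7 in granulosa-like (0.737% of genes), 0 of 6 in theca-like (0.674%) and 0 of 5 in epithelia-like cells (0.319%). These shares are so small that a count of 0 among so few members is no result about the clock genes.

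Clock itself did not differ beyond counting error between the germ-like cells of the libraries, with a KO over WT log2 ratio of 0.00 (-0.04 to 0.04). The cryptochromes were alike within narrow limits, Cry1 at 0.02 (-0.05 to 0.08) and Cry2 at 0.02 (-0.09 to 0.13). For 5 of the 9 members the interval lay below 0, as it did for 36.4% of the 13795 genes, and for 0 members above 0, against 20.6%. With counts this deep the interval excluded 0 for most genes, and the members' count is read as a description. The 5 were Per2 at -0.54 (-0.93 to -0.15), Per3 at -0.20 (-0.26 to -0.14), Nr1d1 at -0.54 (-0.84 to -0.24), Nr1d2 at -0.25 (-0.32 to -0.19) and Dbp at -0.34 (-0.53 to -0.16). Arntl was at -0.21 (-0.41 to 0.00). The median of the 9 members was -0.21 beside -0.05 over all 13795 genes, and that of the 25 other clock genes -0.19.

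By stage, the KO over WT ratio of Per3 was -0.05 (-0.24 to 0.14) in premeiotic-like, -0.31 (-0.51 to -0.11) in meiotic entry-like and -0.22 (-0.30 to -0.14) in recombination-like cells. In recombination-like cells Nr1d1 was at -0.72 (-1.20 to -0.24) and Nr1d2 at -0.18 (-0.28 to -0.08). The stages hold very different numbers of UMIs, and a difference between them was not tested. Dbp did not differ beyond counting error within the premeiotic-like (-0.04), meiotic entry-like (0.10) or recombination-like cells (0.08). Without the advanced prophase-like cells, of which WT held 63 and KO 10, its germ-like ratio was -0.20 (-0.39 to -0.01). The KO cells were shallower, with a median of 11317.5 UMIs per germ-like cell against 17100.5, and Malat1 was lower in KO germ-like cells by -0.25. With every cell thinned to 3000 UMIs, Per3 was at -0.17 (-0.30 to -0.04), Nr1d2 at -0.17 (-0.31 to -0.02), Dbp at -0.63 (-1.07 to -0.20), Per2 at -0.43 (-1.43 to 0.57) and Nr1d1 at 0.05 (-0.68 to 0.80), the last from 27 WT and 42 KO UMIs. In the middle Malat1 group Per3 was at -0.15 (-0.23 to -0.07), Nr1d2 at -0.26 (-0.35 to -0.17), Nr1d1 at -0.70 (-1.14 to -0.26), Per2 at -0.40 (-0.92 to 0.12) and Dbp at -0.16 (-0.41 to 0.08). Per3 and Nr1d2 were thus lower in KO in both, by under 2-fold. The sign of Nr1d1 changed with thinning, and the interval of Dbp included 0 in the Malat1 group. Arntl went from 0.18 (-0.30 to 0.66) with thinned cells to -0.53 (-0.82 to -0.24) in the Malat1 group.

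In somatic classes Clock was higher in KO, by a log2 ratio of 0.52 (0.25 to 0.79) in epithelia-like and 0.21 (0.01 to 0.40) in granulosa-like cells, with 0.11 (-0.10 to 0.33) in theca-like cells. Cry1 was higher in granulosa-like cells by 0.29 (0.06 to 0.52). Germ marker RNA was also higher in the KO soma: the 8 markers summed to 1105 CPM in KO and 802 CPM in WT epithelia-like cells and to 1628 and 1019 CPM in granulosa-like cells, with none at 0. Its part in the Clock difference was not tested. Arntl in epithelia-like cells read -1.46 (-2.44 to -0.53) from 43 UMIs, too few to be counted.

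**Figure D5:**
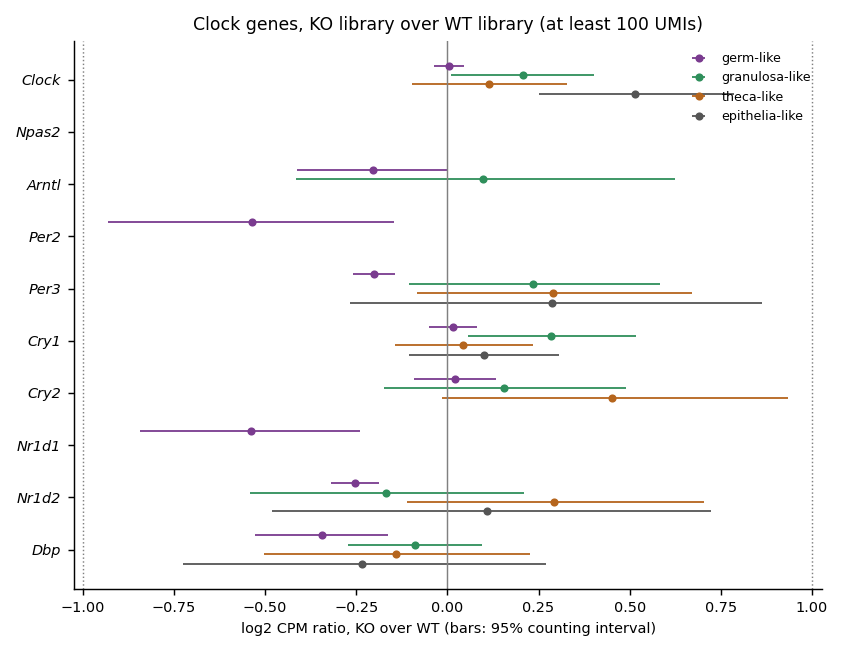
Log2 CPM ratio of the KO over the WT library for the clock genes in the 4 main cell classes, for genes with 100 or more UMIs in the libraries together. Points are single ratios, lines are 95% counting intervals, the solid line is no difference and dotted lines mark 2-fold. Germ-like Clock lies at 0.00, and no point lies beyond a dotted line.

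Across the 3 larger germ stages and 3 main somatic classes of both libraries, 12 points in all, Nr1d2 (Pearson r of log2(CPM + 1) = 0.98) and Per3 (0.97) followed Clock most closely among the members. The next were Cry2 at 0.79 and Cry1 at 0.33, and Npas2 (-0.39), Arntl (-0.56), Nr1d1 (-0.57) and Dbp (-0.73) had negative values, as did Malat1 (-0.97). The points share 2 libraries and the contrast of germ with soma, so these values are a description. Of 4972 genes outside the lists with at least 100 UMIs in every point, the most like Clock were Taf6, a TFIID subunit, Camsap1, a microtubule minus-end binding protein, and Tmx4, a thioredoxin-related membrane protein, each at about 0.99 or above. Adding the advanced prophase-like stage, whose KO point is the 10 cells with 11 Clock UMIs, gave 14 points and left 152 genes outside the lists. With it Per3 was at 0.97, Nr1d2 at 0.95, Cry2 at 0.55, Arntl at -0.30 and Dbp at -0.27, and the most like genes were Atp5f1, a subunit of ATP synthase, Tex15, a germ cell factor of meiosis and piRNA silencing, and 2700060E02Rik, each at 0.98.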

How the data were processed

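The authors deposited whole-number UMI counts per gene and cell barcode for each library, made with Cell Ranger 3.0.2 per the file headers. The submitters' processing notes also name Seurat 3.2.3 and mm10. Other settings are not given in the sources used here. Of 27998 gene identifiers, 27722 (99.0%) matched GENCODE M21 (GRCm38).

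Cells were kept within the limits of the study: 1500 to 6500 genes and 5500 to 40000 UMIs for WT, 1200 to 5500 genes and 3000 to 30000 UMIs for KO, and under 10% mitochondrial UMIs. Counts were normalised and clustered with scanpy 1.11.5 and leidenalg 0.10.2 (2000 variable genes, 30 components, 20 neighbours, resolution 0.5, seed 1), without the clock genes and Nr3c1. For the classes, numbers of genes and UMIs and the mitochondrial and ribosomal protein shares were regressed out. For the clusters of germ-like cells nothing was regressed out, and each gene was centred within each library before clustering. Levels were taken from the uncentred counts. Classes needed at least 3 markers, at over 2-fold, in 10% of cells. Stages needed a marker level over 1.25-fold that of other germ-like cells, and a cluster took the stage with the larger share of its list. The form of both rules was chosen with the clusters and member values in view, and these rebuilt names may differ from those of the study. No doublet caller was applied in the main values.

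UMIs were summed per class and library and expressed as CPM, with exact Poisson intervals. Log2 ratios carry exact conditional binomial intervals and shares of cells Clopper-Pearson intervals. A ratio was counted at 2-fold with at least 100 UMIs over both sides. Thinning to 3000 UMIs left out 0 cells. The counting was tested on simulated data. The median kept cell held 15685 UMIs in WT and 10194.5 in KO, so levels near 1 CPM rest on few UMIs in the smaller classes.

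The members, the list of 25 other clock genes and the markers were chosen with earlier results of these data known. A further gene of that list is not reported here. Named by rule were all members, Nr3c1, list genes past 2-fold with at least 100 UMIs, and the 3 genes most like Clock. Promoters are from RefSeq (GRCm38.p6). Alternatives were common cell limits, Scrublet (expected rate 8%), removal of cells with markers of another class, thinning, the mean over cells, CPM without mitochondrial, ribosomal protein and haemoglobin genes, resolution 1.0, other minima and folds 4 equal-sized groups of germ-like cells by stage markers and, added later, 3 Malat1 groups and another stage for cluster 7.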

Additional observations from a re-analysis of the deposited data

How the results depend on the processing

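The germ-over-somatic log2 ratio of Clock was 1.55 in WT and 1.31 in KO. It stayed positive and above 2-fold under all 9 alternatives of each library. Of the 3 Malat1 groups, only the middle one was among these alternatives. In the low group the ratio was 0.42 (-0.50 to 1.55) in WT and 0.54 (-0.08 to 1.26) in KO, under 2-fold. In the high group it was 2.20 and 1.98. It moved beyond its counting interval in WT to 1.70 with common cell limits, 1.70 without Scrublet doublets (2.60% of WT and 6.60% of KO cells), 1.83 without cells holding markers of another class and 1.70 as a mean over cells. In KO it moved to 1.58 without Scrublet doublets, 1.77 without cells of mixed markers, 1.45 with thinned cells and 1.5 as a mean over cells. In the middle of 3 equal-sized Malat1 groups of cells, chosen after seeing the data, it was 1.23 in WT and 1.03 in KO, and the KO over WT ratio of Clock in germ-like cells was 0.051. The advanced prophase-like over premeiotic-like ratio of Clock was 0.16 in WT and 0.21 in KO, and its direction is not settled. In WT it was -0.23 with thinned cells, -0.37 in that Malat1 group, -0.07 between the most and least advanced of 4 equal-sized groups by stage markers and -0.87 with cluster 7 counted as advanced prophase-like. In KO it was -0.65 in that Malat1 group, -0.07 between the equal-sized groups and -1.11 with cluster 7 so counted, a choice also made after seeing the data. The cause was not tested. The KO over WT ratio of Nr1d1, -0.54, ran from -0.70 to 0.05 over its alternatives. Common limits left no advanced prophase-like cluster and gave no such ratio. The count of members past 2-fold, 4 in each library, was 2 in WT and 1 in KO under the 0.25 limit. The count between genotypes was 0 under all 12 alternatives. Of 241 values for single members, 195 stayed within their interval and 46 moved, none reversing a difference past 2-fold. In all, 66 of the 83 values for the main results stayed. No paired analysis was possible because each genotype has 1 library. Depth limits Npas2, Per2, Nr1d1 and Arntl.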
